A study of Mus musculus with 5 samples.

Results

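The 10 names studied here were the tyrosine tRNA genes of the mouse, listed as names that begin with tRNA and end with TyrGTA, GTA being the anticodon. They were found by that rule in the tables of all 5 libraries, among 1038 names of repeats and small RNAs and beside 218 other tRNA names. The tyrosine names were chosen by their measured values in these same libraries, since they stood out between the enzyme-treated and the untreated testis library, so their enzyme ratios and spermatogonia ratios are given as a description, with no test. Each name was followed singly and in the sum of all 10.

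Tyrosine tRNA genes of vertebrates carry a short intron just 3′ of the anticodon. They are transcribed by RNA polymerase III, whose primary transcripts keep a 5′ triphosphate, and the transcript becomes a mature tRNA once RNase P has removed the 5′ leader, RNase Z the 3′ trailer and the tRNA splicing endonuclease (TSEN) the intron. A 5′ adaptor is ligated only to a 5′ monophosphate, so a triphosphate end enters a library only after an enzyme has trimmed it. A mature tRNA is shorter than the inserts cut from the gel, so the size selection was above the mature form, although the tables give no read lengths by which to check single reads. The tyrosine tRNA genes themselves are 86 to 93 bases long in RefSeq, which is also under the smallest insert of 115 nt.

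The libraries held RNA with inserts of 115 to 255 nt from C57BL/6J mice at postnatal day 7. Whole testis RNA was either left untreated, or treated with TAP (named tobacco alkaline phosphatase in the labels), which opens both caps and triphosphates, or with 5′ polyphosphatase (5Pase), which trims triphosphates and leaves caps, with 1 library for each. The other 2 libraries were replicates of spermatogonia, the mitotic germ cells, sorted by FACS for EpCAM and treated with RppH, which opens triphosphates and caps, and they were made with another library kit. Tissue, enzyme and kit therefore cannot be told apart between spermatogonia and testis, the study calls the spermatogonia libraries biological replicates without saying whether they came from separate animals, and in bulk RNA fewer cells of a type and less RNA per cell cannot be told apart. The tables name repeats and small RNAs and no protein-coding marker, so the labelled cell type was not checked against markers.

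The tables listed from 1067851 to 3166394 reads per library, of which 5.8S rRNA took from 19.2% to 50.2% and tRNA names from 14147 to 75255 reads. Levels are given as reads per 1000000 5.8S rRNA reads (RPM) of the same library. A level of 3 reads, the smallest taken as present, lay between 2.43 and 14.4 RPM. Intervals are 95% intervals and cover counting error only, since reads were not collapsed to molecules.

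Tyrosine tRNA reads were nearly lacking in the untreated testis library and plentiful in the other 4. The 10 names together had 5 reads in untreated testis, 766 after TAP, 616 after 5Pase, 1316 in spermatogonia replicate 1 and 1832 in replicate 2. As levels these were 15.8, 1429, 2962, 1064 and 3553 RPM, in the same order. The order from low to high was thus untreated testis, spermatogonia replicate 1, testis after TAP, testis after 5Pase and spermatogonia replicate 2. The spermatogonia mean was 2308 ± 1760 RPM (SD, n = 2), a spread within which both enzyme-treated testis libraries lay, so only untreated testis stood apart from its neighbours in this order.

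Every one of the 10 names had at least 1 read in each enzyme-treated library, and 4 had reads in the untreated one. The name tRNA_chr14.trna191-TyrGTA (below, chr14.trna191) had 1 read in untreated testis, 268 after TAP, 246 after 5Pase, and 181 and 195 in the spermatogonia replicates. The name chr5.trna109 had 1, 391, 233, 104 and 151 reads in the same order. Each is the sole tyrosine name of its chromosome, and in RefSeq (GRCm38.p6), which likewise has 10 tyrosine tRNA genes, the sole one of chromosome 14 is n-TYgta10, next to the ribonuclease genes Ang and Rnase4, and the sole one of chromosome 5 is n-TYgta9, next to Agbl5, which encodes an enzyme that trims glutamate from tubulin. Both names were at their lowest in untreated testis, and after either enzyme both stood above both spermatogonia replicates, with 500 and 1183 RPM against 146 and 378 RPM for chr14.trna191, and with 729 and 1120 RPM against 84.1 and 293 RPM for chr5.trna109.

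Chromosome 13 gave 6 names, with another order of libraries. RefSeq likewise places 6 tyrosine tRNA genes on chromosome 13, 5 of them beside Abt1, which encodes a regulator of basal transcription, and 1 on the far side of the milk fat globule gene Btn1a1, but the numbered names could not be matched to them singly. The name chr13.trna106 had 2, 33, 36, 219 and 409 reads (untreated, TAP, 5Pase, and spermatogonia replicates 1 and 2). The name chr13.trna960 had 0, 4, 14, 254 and 375 reads. For chr13.trna959 the counts were 0, 1, 19, 140 and 323. In all of these, both spermatogonia replicates lay above all testis libraries, with 177 and 793 RPM for chr13.trna106, 205 and 727 RPM for chr13.trna960, and 113 and 626 RPM for chr13.trna959, although for chr13.trna106 the gap from 5Pase, at 173 RPM, to replicate 1 was small.

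The name chr13.trna958 had 0, 7, 16, 198 and 169 reads, and its spermatogonia levels, 160 and 328 RPM, again lay above the 76.9 RPM after 5Pase. The name chr13.trna961 had 0, 21, 19, 72 and 61 reads, and here the 91.3 RPM after 5Pase fell between the replicates, at 58.2 and 118 RPM. The least abundant of all was chr13.trna101, with 0, 2, 2, 34 and 29 reads. Its testis counts were at or under the 3-read floor in all 3 libraries, while in spermatogonia it stood at 27.5 and 56.2 RPM.

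Chromosome 3 gave the remaining 2 names, and RefSeq has 2 genes there too, between Trim55 and Dnajc5b. The name chr3.trna27 had 1, 8, 6, 88 and 74 reads, and was higher in both spermatogonia replicates, at 71.1 and 144 RPM, than in any testis library. The name chr3.trna28 had 0, 31, 25, 26 and 46 reads. It was highest after 5Pase, at 120 RPM, and the testis and spermatogonia levels of this name overlapped.

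**Figure D1:**
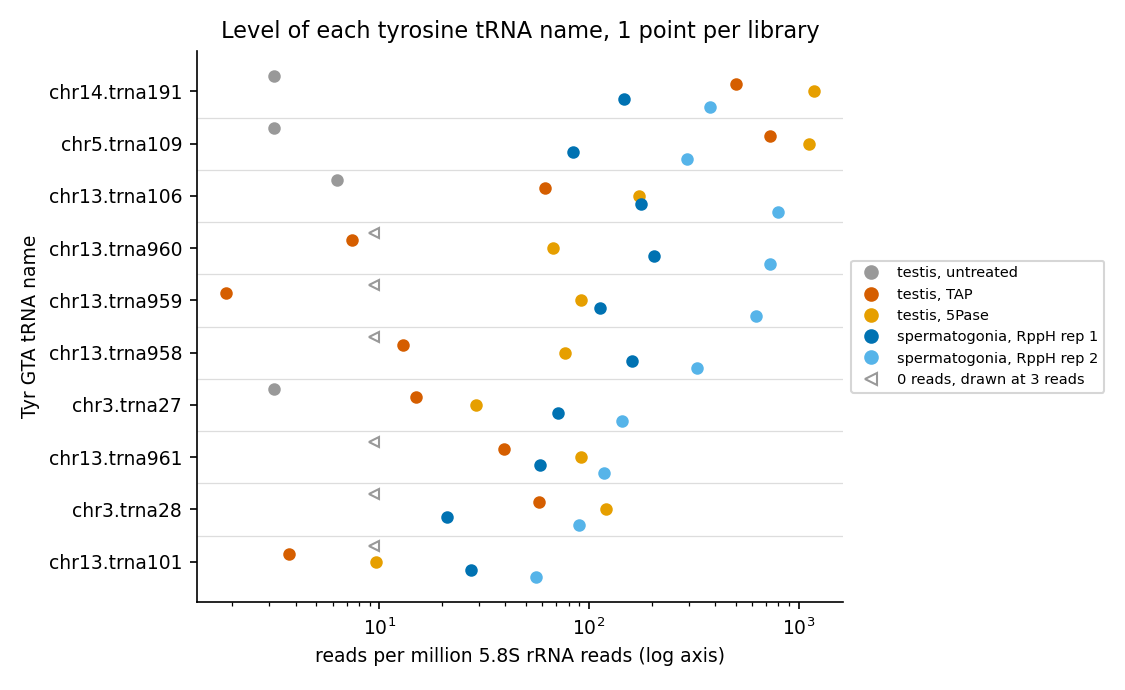
Level of each tyrosine tRNA name, in reads per 1000000 5.8S rRNA reads on a log axis, with 1 point per library and open triangles at the 3-read level where untreated testis had 0 reads. For chr14.trna191 and chr5.trna109 the 2 enzyme-treated testis points lie to the right of both spermatogonia points, while for chr13.trna960, chr13.trna959, chr13.trna958 and chr3.trna27 both spermatogonia points lie to the right.

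The paper compared TAP-treated with untreated RNA to check its method on rRNAs and the origin of SINE reads. Here the enzyme treatments were used to describe which tyrosine names gain reads once a 5′ triphosphate or cap is opened. The sum of the tyrosine names was 90.4-fold (37.5 to 218) higher after TAP than without enzyme and 187-fold (77.7 to 451) higher after 5Pase. Both ratios rest on 5 untreated reads, which sets the width of the intervals. 5S rRNA, another RNA polymerase III transcript, was itself 4.14-fold higher after TAP and 7.18-fold after 5Pase, and per 5S rRNA read the tyrosine ratios were 21.8 and 26.1. Without replicate libraries in testis, neither ratio has a check against the spread between animals.

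The name with the largest TAP ratio was chr5.trna109, at 231 (32.4 to 1641), followed by chr14.trna191 at 158 (22.2 to 1126), each against 1 untreated read. After 5Pase the same names had ratios of 354 (49.7 to 2525) and 374 (52.5 to 2665). The ratio of chr13.trna106 was 9.73 (2.34 to 40.6) after TAP and 27.4 (6.59 to 114) after 5Pase, and that of chr3.trna27 was 4.72 (0.590 to 37.7) and 9.12 (1.10 to 75.7). The interval of chr3.trna27 after TAP included 1.

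The other 6 names had no read in untreated testis, and their ratios are lower limits against 3 reads. These limits are not on the scale of the ratios above, which were taken against the 1 or 2 reads counted. After 5Pase the increase was at least 12.7-fold for chr3.trna28, at least 9.63-fold for chr13.trna959 and for chr13.trna961, at least 8.11-fold for chr13.trna958 and at least 7.09-fold for chr13.trna960. After TAP it was at least 6.09-fold for chr3.trna28, at least 4.13-fold for chr13.trna961 and at least 1.38-fold for chr13.trna958. For chr13.trna960 the TAP limit was 0.786, which sets no direction, and no ratio was formed for chr13.trna959 after TAP or for chr13.trna101 after either enzyme, where both counts were at or under the floor.

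Of the 10 names, 5 had at least 10 reads in the untreated and TAP libraries together, and all of these were at least 2-fold higher after TAP, where 28.7% of the 324 names so tested were. In the 5Pase comparison 8 had at least 10 reads and all 8 were at least 2-fold higher, against 41% of 315 names. A name at or near 0 without enzyme passes the read minimum only where the enzyme raises it, so these counts say nothing beyond the ratios themselves, and the names were picked for this contrast. Of the other tRNA names, 31 of 74 were at least 2-fold higher after TAP and 64 of 88 after 5Pase.

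Summed by amino acid and anticodon, tyrosine had the largest enzyme ratio of the tRNA types with at least 10 reads, the first of 39 types after TAP, where the median type was at 1.81, and the first of 41 after 5Pase, where the median was 7.31. The tyrosine names were picked for this contrast, so their first place is a description and follows in part from that choice. After 5Pase, PheGAA, with 0 untreated reads, was ranked by its lower limit of 11.1. The next types after TAP were ThrAGT at 12.4 (1.67 to 92.1) and AsnGTT at 12.3 (5.00 to 30.1). After 5Pase the next was GlyACC at 129 (18.0 to 928). The intervals of ThrAGT and GlyACC, each from 1 untreated read, took in the tyrosine value of the same enzyme. All tRNA names other than tyrosine together were at 0.795 after TAP and 1.87 after 5Pase, a sum led by GluCTC, with 9307 of all 14147 tRNA reads of the untreated library. The 3 other tRNA types in which mammalian genes carry introns had 35, 291, 685, 505 and 579 reads in the order of libraries above. Their sum was 4.90-fold higher after TAP and 29.7-fold after 5Pase, with ArgTCT at 5.47 and 37.9, IleTAT at 5.11 and 11.1, and LeuCAA at 2.36 and 3.80. All of these values lay below those of tyrosine, and LeuCAA after 5Pase (1.47 to 9.79) also lay below the median type.

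**Figure D2:**
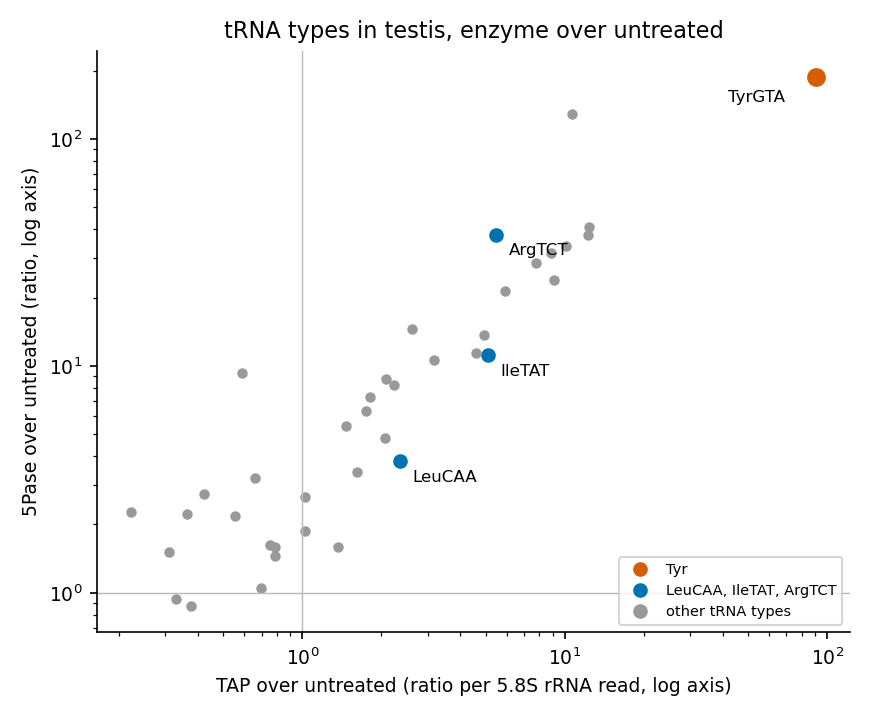
Ratio of TAP to untreated (x axis) and of 5Pase to untreated (y axis) for each tRNA type, per 5.8S rRNA read, both axes logarithmic. Tyrosine lies at the far upper right at 90.4 and 187, and the other intron-carrying types, in blue, lie between 2.36 and 5.47 on the x axis.

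The paper describes what it obtained with TAP and with 5Pase as very similar. Between the enzymes, tyrosine reads were lower after TAP than after 5Pase, with a ratio of 0.483 (0.434 to 0.537). This direction depends on the denominator, since 5.8S rRNA took 50.2% of listed reads after TAP and 19.2% after 5Pase, and per listed read the ratio was 1.26. Among tRNA types tyrosine was the 7th of 42 in this ratio, above the median of 0.291. The names chr13.trna958, chr13.trna959 and chr13.trna960, grouped after their values were seen, had 12 reads together after TAP and 49 after 5Pase, a ratio of 0.0950 (0.0505 to 0.179), so they were lower after TAP than the tyrosine sum was.

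As a share of all tRNA reads, tyrosine made up 0.0353% (0.0151 to 0.0827, Wilson) in untreated testis, 3.86% (3.60 to 4.14) after TAP and 3.43% (3.17 to 3.70) after 5Pase. In spermatogonia it made up 1.75% (1.66 to 1.84) and 2.59% (2.47 to 2.71), or 2.17% ± 0.593 (SD, n = 2). Both testis shares after enzyme thus lay above both spermatogonia shares, although without chr14.trna191 the 5Pase share, at 2.09%, lay between the spermatogonia shares, at 1.51% and 2.32%. Per 100 reads of 5S rRNA the order was the other way, with 0.157 tyrosine reads in untreated testis, 3.42 after TAP, 4.08 after 5Pase, and 6.64 and 5.20 in spermatogonia.

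**Figure D3:**
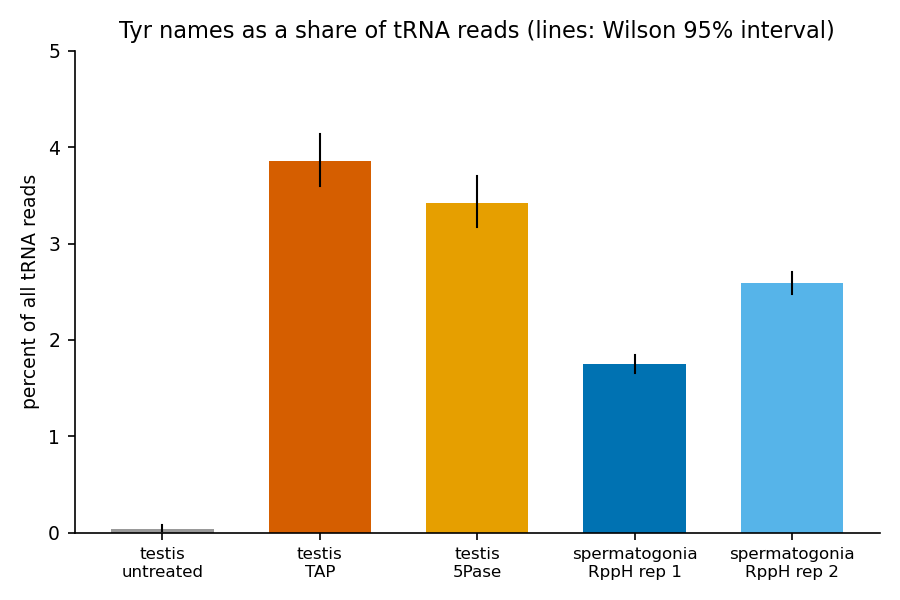
Tyrosine names as a percent of all tRNA reads in each library, with Wilson 95% intervals as lines. The 2 enzyme-treated testis libraries, at 3.86% and 3.43%, stand above the spermatogonia replicates, at 1.75% and 2.59%, and untreated testis is near 0.

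Between spermatogonia and testis, the tyrosine sum per 5.8S rRNA read did not differ beyond the spread of the replicates. Relative to testis after TAP it was at 0.744 (0.681 to 0.814) in replicate 1 and 2.49 (2.29 to 2.71) in replicate 2, with a mean of 1.62 ± 1.23 (SD, n = 2). Relative to 5Pase it was at 0.359 (0.326 to 0.395) and 1.20 (1.10 to 1.31), with a mean of 0.779 ± 0.594. Under 2 other denominators both replicates lay on the same side of 1, but not the same side for each denominator. Per read of other tRNA names the sum was lower in both, at 0.443 and 0.661 relative to TAP and at 0.502 and 0.749 relative to 5Pase. Per 5S rRNA read it was higher in both, at 1.94 and 1.52 relative to TAP and at 1.63 and 1.27 relative to 5Pase. The replicates themselves differed 3.34-fold in the tyrosine level, 2.24-fold in other tRNA, 4.27-fold in 5S rRNA and 1.84-fold in all listed names but 5.8S rRNA. With 2 replicates against 1 library no test between the tissues was made. Among tRNA types tyrosine was the 38th of 47 against TAP, where the median type was at 5.08, and the 33rd of 48 against 5Pase, where it was at 1.53.

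The single names differed among themselves in direction. The name chr5.trna109 was lower in spermatogonia than in testis in both replicates, at 0.115 and 0.401 relative to TAP and at 0.0751 and 0.261 relative to 5Pase. For chr14.trna191 the ratios were 0.293 and 0.756 to TAP and 0.124 and 0.320 to 5Pase. Both names kept ratios under 1 in both replicates per 5.8S rRNA read, per listed read, per sequenced read, per other tRNA read and per 5S rRNA read.

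In the other direction, chr13.trna960 was higher in spermatogonia, at 27.5 and 97.5 relative to TAP and at 3.05 and 10.8 relative to 5Pase. For chr13.trna958 the ratios were 12.3 and 25.1 to TAP and 2.08 and 4.26 to 5Pase. The ratios of chr13.trna959 to TAP, 60.7 (8.49 to 434) and 336 (47.2 to 2391), rest on 1 TAP read, and to 5Pase they were 1.24 (0.767 to 2.00) and 6.86 (4.32 to 10.9), the former with an interval that includes 1. These 3 names otherwise lay above 1 against either testis library, by amounts that depended strongly on which testis library was taken.

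Among the other names, chr13.trna106 was at 2.88 and 12.9 relative to TAP. Relative to 5Pase it was at 1.02 (0.719 to 1.46) and 4.58, the former with an interval that includes 1. The name chr3.trna27 was at 4.77 and 9.62 and at 2.47 and 4.98, and chr13.trna101, against 2 testis reads each, at 7.37 (1.77 to 30.7) and 15.1 (3.60 to 63.2) and at 2.86 (0.687 to 11.9) and 5.85 (1.40 to 24.5). Of the remaining names, chr13.trna961 was at 1.49 and 3.02 relative to TAP but at 0.637 and 1.30 relative to 5Pase. The ratios of chr3.trna28 were 0.363 and 1.54 to TAP and 0.175 and 0.742 to 5Pase, so it crossed 1 only relative to TAP. Per listed, sequenced, other tRNA or 5S rRNA read, chr3.trna28 was under 1 in both replicates against either testis library, at up to 0.998.

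With a ratio past 2-fold in both replicates taken as a call, 6 of the 10 names were higher and 1 was lower in spermatogonia relative to TAP, where 50.1% of the 563 names so tested were higher and 14.9% were lower. Relative to 5Pase 4 were higher and 2 lower, against 30.5% and 28.4% of 550 names. These calls include chr13.trna101, which rests on 2 reads in either testis library, and, relative to TAP, chr13.trna959, which rests on 1. The shares of higher names were close to those over all names, and the median ratio of the tyrosine names, 7.54 to TAP and 2.99 to 5Pase, lay above that of all names, 2.89 and 1.18, and of other tRNA names, 4.73 and 1.56. Per listed read, 6 were higher and 2 lower in either comparison, where 41% of all names were higher and 19% lower relative to TAP, and 41.3% and 22.2% relative to 5Pase.

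**Figure D4:**
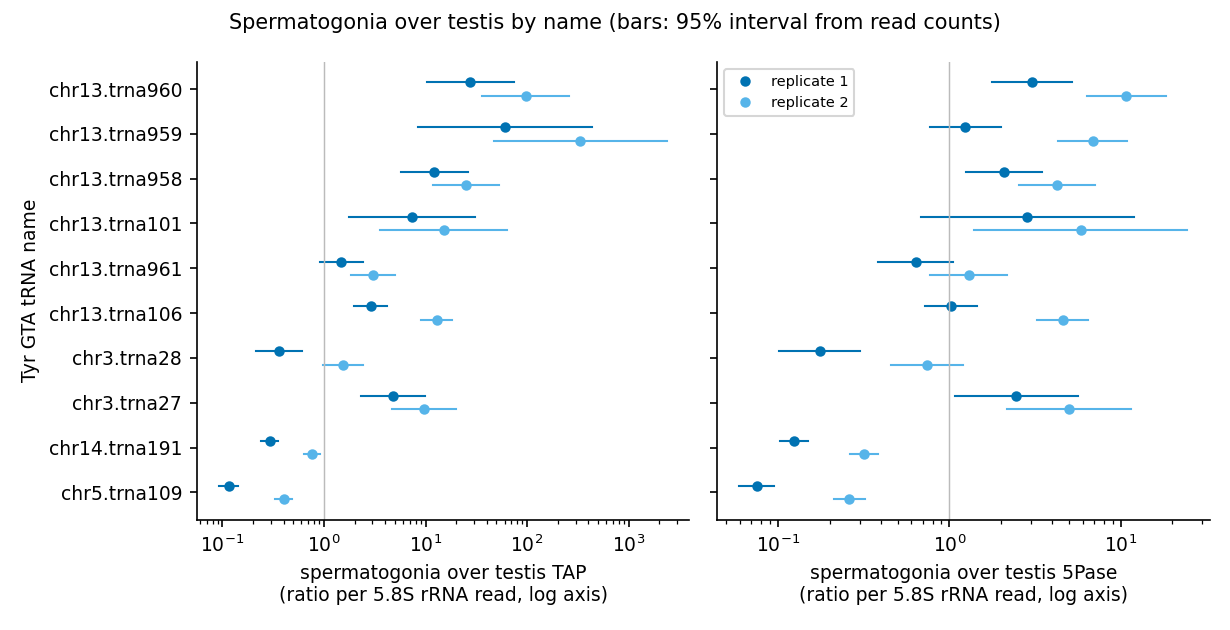
Ratio of spermatogonia to testis after TAP (left) and after 5Pase (right) for each tyrosine name, per 5.8S rRNA read on a log axis, with 1 point per spermatogonia replicate and bars for the 95% interval from read counts. The names chr14.trna191 and chr5.trna109 lie left of 1 in both panels, and chr13.trna960 and chr13.trna958 lie right of 1.

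The make-up of the tyrosine reads does not depend on any denominator outside them. It differed between enzyme-treated testis and spermatogonia by more than the spread of the replicates. The names chr5.trna109 and chr14.trna191 together held 86.0% (83.4 to 88.3) of the tyrosine reads after TAP and 77.8% (74.3 to 80.9) after 5Pase, but 21.7% (19.5 to 24.0) and 18.9% (17.2 to 20.7) in spermatogonia, 20.3% ± 1.96 (SD, n = 2). The 6 chromosome 13 names held 8.88% (7.06 to 11.1) and 17.2% (14.4 to 20.4) in testis and 69.7% (67.1 to 72.1) and 74.6% (72.5 to 76.5) in spermatogonia, 72.1% ± 3.45. Shares in enzyme-treated testis and in spermatogonia did not overlap for either group. In untreated testis each group held 40% (11.8 to 76.9) of 5 reads. This interval takes in the spermatogonia shares and also the chromosome 13 share after 5Pase, so 5 reads do not place untreated testis with either. The pair joins the 2 names with the most reads in either enzyme-treated testis library, so its high share there follows from that choice. As parts of 1 total, the shares also move against each other. The chromosome 3 names moved in opposite directions. The share of chr3.trna27 was 1.04% and 0.974% in testis and 6.69% and 4.04% in spermatogonia, while that of chr3.trna28 was 4.05% and 4.06% in testis and 1.98% and 2.51% in spermatogonia, so that their sum varied less, from 5.03% to 8.66%.

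Within chromosome 13 the gain was uneven. The names chr13.trna958, chr13.trna959 and chr13.trna960 went from 1.57% after TAP and 7.95% after 5Pase to 45.0% and 47.3% in spermatogonia, 46.2% ± 1.66 (SD, n = 2). These names were grouped after their values were seen, so the size of their joint gain follows in part from that choice. The name chr13.trna106 held 4.31% and 5.84% in testis and 16.6% and 22.3% in spermatogonia. By reads, the leading name was chr5.trna109 after TAP, chr14.trna191 after 5Pase, chr13.trna960 in replicate 1 and chr13.trna106 in replicate 2. The most abundant tyrosine name was thus of chromosome 5 or 14 in enzyme-treated testis and of chromosome 13 in spermatogonia. In untreated testis it was chr13.trna106, with 2 of the 5 tyrosine reads.

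**Figure D5:**
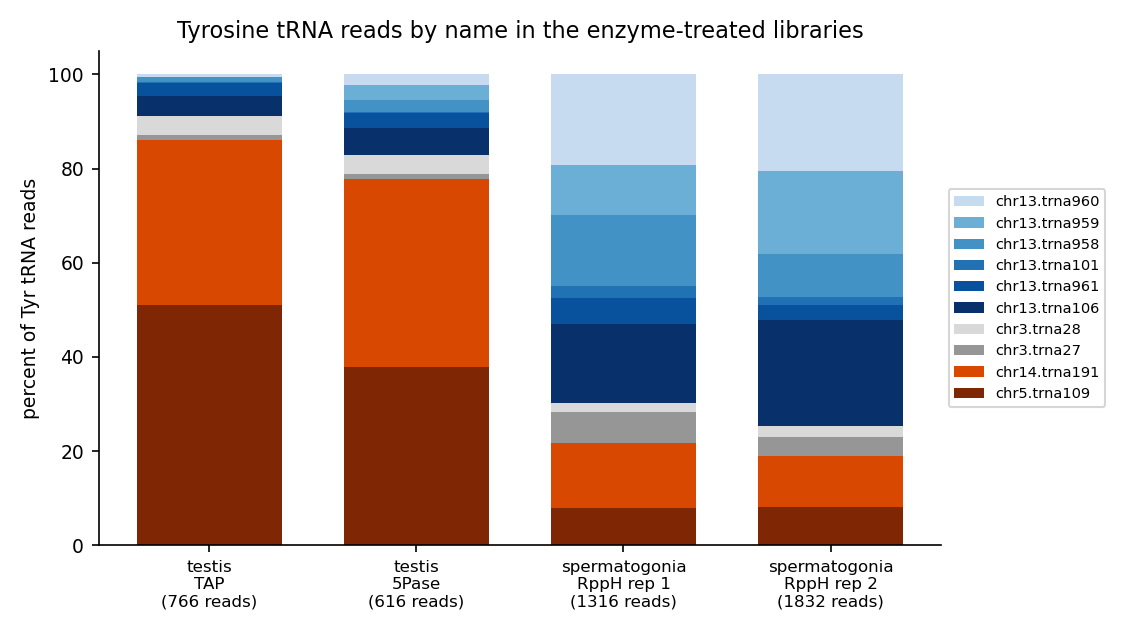
Percent of tyrosine tRNA reads under each name in the 4 enzyme-treated libraries, stacked to 100%, with the number of tyrosine reads under each bar. Red shades (chr5.trna109 and chr14.trna191) fill 86.0% and 77.8% of the testis bars and 21.7% and 18.9% of the spermatogonia bars, where blue shades (chromosome 13) fill 69.7% and 74.6%.

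Other tRNA names of chromosome 13, which carries a large tRNA gene cluster in the mouse, had higher spermatogonia ratios than those of other chromosomes too. Relative to TAP, 31 of 43 were higher and 1 lower, with a median of 8.06, against 58 higher and 12 lower of 113 on other chromosomes, with a median of 3.50. Relative to 5Pase, 23 of 45 were higher and 7 lower, with a median of 2.84, against 31 higher and 27 lower of 115, with a median of 1.23. Over all names, 50.1% were higher and 14.9% lower relative to TAP, and 30.5% and 28.4% relative to 5Pase. The tyrosine names of chromosome 13 as a sum were at 5.84 and 20.9 relative to TAP and at 1.45 and 5.20 relative to 5Pase, and whether they differed from the other chromosome 13 tRNA names was not tested. The assignment of reads to near-identical tyrosine gene copies is uncertain, and whether it differed between the reads of the tissues was not tested.

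The name whose levels over the 5 libraries lay closest to the tyrosine sum, by the root mean square difference of centred log2 RPM, was tRNA_chr14.trna209-ArgACG, an arginine tRNA, at 1.10, among 172 names with at least 10 reads in every library. It had 22 reads in untreated testis, 409 after TAP, 409 after 5Pase, and 996 and 1475 in spermatogonia. The SINE names B4A, B3A, RSINE1 and B3 came next, at 1.70, 1.82, 1.87 and 1.88. The read minimum leaves out names nearly lacking in untreated testis, where the tyrosine sum itself, at 5 reads, would not pass it, so closer names may be among those left out. These are descriptions over 5 libraries whose points share the 5.8S rRNA denominator.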

How the data were processed

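The authors deposited raw counts, 1 table for each of 5 MiSeq libraries, in which each repeat or small RNA name has its number of reads. Per the study's methods, reads without the 3′ adaptor were discarded with Cutadapt and the others were assigned with RepeatMasker. Tool versions, the repeat library and the genome build behind the tRNA names are not given in the sources used here, so no coordinates are printed. The tables hold no read lengths or sequences, so whether a read kept the intron cannot be read from them. From untreated testis and from 5Pase, 1 line without a count was skipped in each. For spermatogonia the labels and methods differ on the RNA amount, which was not used.

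Groups followed the labels. Levels, ratios with log-ratio 95% intervals and Wilson shares were computed in Python 3.11.15 (numpy 2.4.6, scipy 1.17.1, matplotlib 3.10.9), with a 10-read minimum, a 2-fold threshold and a 3-read floor. On simulated spermatogonia replicate 1 counts, intervals covered 95.5% of 200 4-fold changes and 97.3% of 256 unchanged names. These draws held counting error alone, as the intervals assume, and only names that passed the 10-read minimum. They therefore do not check intervals that rest on fewer reads, nor the spread between libraries. No test was made, with 1 library per testis treatment. The tyrosine names and the comparison lists were chosen with earlier results of these data known. All tyrosine names are described, and the 5 most similar names were taken by root mean square difference. Alternatives changed the denominator, the read minimum, the leading name or the replicates used.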

Additional observations from a re-analysis of the deposited data

How the results depend on the processing

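Per 5S rRNA read, an alternative chosen after seeing the data, the tyrosine sum was at 21.8 for TAP over untreated, 26.1 for 5Pase over untreated and 1.45 for spermatogonia over 5Pase. Under the other denominators tried (listed reads, sequenced reads, size factors, other tRNA reads) and without chr14.trna191, the name with the most reads, these ratios ranged from 73.4 to 167, from 100 to 143 and from 0.625 to 1.23, and spermatogonia over TAP from 0.552 to 2.20. With either spermatogonia replicate left out, the ratio was 0.744 or 2.49 to TAP and 0.359 or 1.20 to 5Pase per 5.8S rRNA read. Both replicates were lower per other tRNA read and higher per 5S rRNA read, so the direction of the total turned with the denominator. Without chr14.trna191 the tyrosine share of tRNA reads was 2.54% after TAP, 2.09% after 5Pase, and 1.51% and 2.32% in spermatogonia, with the TAP share the highest and the 5Pase share between the spermatogonia replicates. Per listed read, the lower names relative to TAP went from 1 to 2 and the higher names relative to 5Pase from 4 to 6, and the other counts of names past 2-fold moved by at most 1. The cause of these shifts was not tested. With 5 untreated reads, depth limits both enzyme ratios, and single names of under 10 testis reads have wide intervals.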

Other observations

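The chromosome 13 share of the other tRNA reads rested largely on 1 name in spermatogonia. It was 2.97% after TAP, 4.50% after 5Pase, and 23.6% and 42.5% in the spermatogonia replicates, and without chr13.trna991-LeuTAA, the chromosome 13 name with the most reads and left out after its values were seen, 1.62%, 2.18%, 8.90% and 8.67%. The median spermatogonia ratio of the chromosome 13 names moved little when it was left out, from 8.06 to 7.85 relative to TAP and from 2.84 to 2.77 relative to 5Pase. Limited to names listed in both tissues, also a choice made after seeing the data, 49.9% of 469 names were at least 2-fold higher in spermatogonia relative to TAP and 13.4% lower, and 28.5% and 30.7% of 463 relative to 5Pase.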
